A study of Mus with 8 samples.

Results

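The cytosolic heat shock proteins described here are 10 chaperones, helpers and their regulator, picked by gene symbol: Hspa1a, Hspa1b, Hspa8, Hsph1, Dnajb1, Bag3, Hsp90aa1, Hsp90ab1, Hspb1 and Hsf1. On the array, 9 of the 10 had a transcript cluster of their own, out of 22206 transcript clusters in all. A transcript cluster is the unit that in most cases stands for 1 gene, while 836 were annotated with several symbols. Hspa1b was represented only by a transcript cluster annotated to both Hspa1b and Hspa1a. It is described under that joint name and is left out of the counts. In the RefSeq mouse gene table (GRCm38.p6) these 2 genes are neighbours on chromosome 17, with Hspa1l on the other side of Hspa1a, and the first 2 are near-identical copies whose transcripts probes can confuse.

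Cytosolic heat shock proteins are chaperones that hold, fold and hand over other proteins. HSP70 chaperones bind exposed stretches of a client in a cycle driven by ATP, J proteins such as Dnajb1 deliver the client, and nucleotide exchange factors such as Hsph1 and Bag3 release it. HSP90 chaperones act later on kinases, receptors and other clients, and small heat shock proteins keep unfolded clients soluble without ATP. The transcription factor HSF1 is held inactive by chaperones in unstressed cells, and when unfolded proteins accumulate it raises the transcription of its chaperone targets, so the inducible members are widely read as a sign of cytosolic protein stress. Tumour cells, melanoma included, are known for their use of HSP90 to keep oncogenic kinases folded.

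The cells were B16F10, a pigmented mouse melanoma line, cultured in 6-well plates. The 4 treated samples were labelled as 2 µM Butyroside D for 48 h, and the 4 control samples as medium for 48 h, with no vehicle named. Each sample was hybridised to 1 Clariom S mouse array, and its signals are given on a log2 scale. The treatment text of the control samples names 0.2 µM as the other arm, where that of the treated samples names 2 µM. The labels do not say whether the samples came from separate cultures, so the p-values below measure the spread between arrays, which may be technical. Melanocyte markers matched the cell line: all 10 had a mean above the array background, while 0 of 8 keratinocyte, 0 of 8 leukocyte, 1 of 8 endothelial and 2 of 7 fibroblast markers did.

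The arrays came in close pairs, numbers 1 with 2 and 3 with 4 in each group. Correlation across transcript clusters was 0.997 to 0.998 within these pairs and 0.986 to 0.993 between arrays of different pairs. A group of 4 arrays therefore holds 2 close pairs, and both the pairs and the single arrays are given below. Array medians spanned 0.14 on the log2 scale. The mean of the melanocyte markers was 14.86 to 15.13 in Butyroside D arrays, against 14.74 to 14.82 in control arrays, so the ranges did not overlap, and the part of this in the values below was not tested. In bulk RNA, fewer cells expressing a gene and less RNA per cell cannot be told apart.

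None of the 9 heat shock transcripts passed the test for a difference between Butyroside D and control arrays. Of the 9, 4 had a positive difference (Hsp90ab1, Hspa8, Hsph1 and Hsp90aa1) and 5 a negative one (Hspa1a, Hsf1, Dnajb1, Hspb1 and Bag3). Their median difference was -0.091 and their median size, whatever the sign, 0.20, against 0.011 and 0.20 over all transcript clusters. Adjusted p-values ran from 0.196 for Hspa1a to 0.776 for Bag3 (limma, Benjamini-Hochberg over all transcript clusters). In the whole table, 0.0766% of transcript clusters were called higher and 0.0405% lower at an adjusted p under 0.05. At an unadjusted p under 0.05 there were 2 of the 9, Hspa1a and Hsf1, both lower. Over all transcript clusters 17.9% reached that level in either direction, and 1793 of the 22206 reached it as lower. The count of members was 1 without treated array 1, treated array 3, control array 1 or control array 2, and 0 without control array 3. No 95% interval of a member reached a 2-fold change in either direction, with 0.93 as the bound farthest from 0 (Hsp90ab1). With the close pair as a random block that bound was 1.04, just past a 2-fold change.

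**Figure D1:**
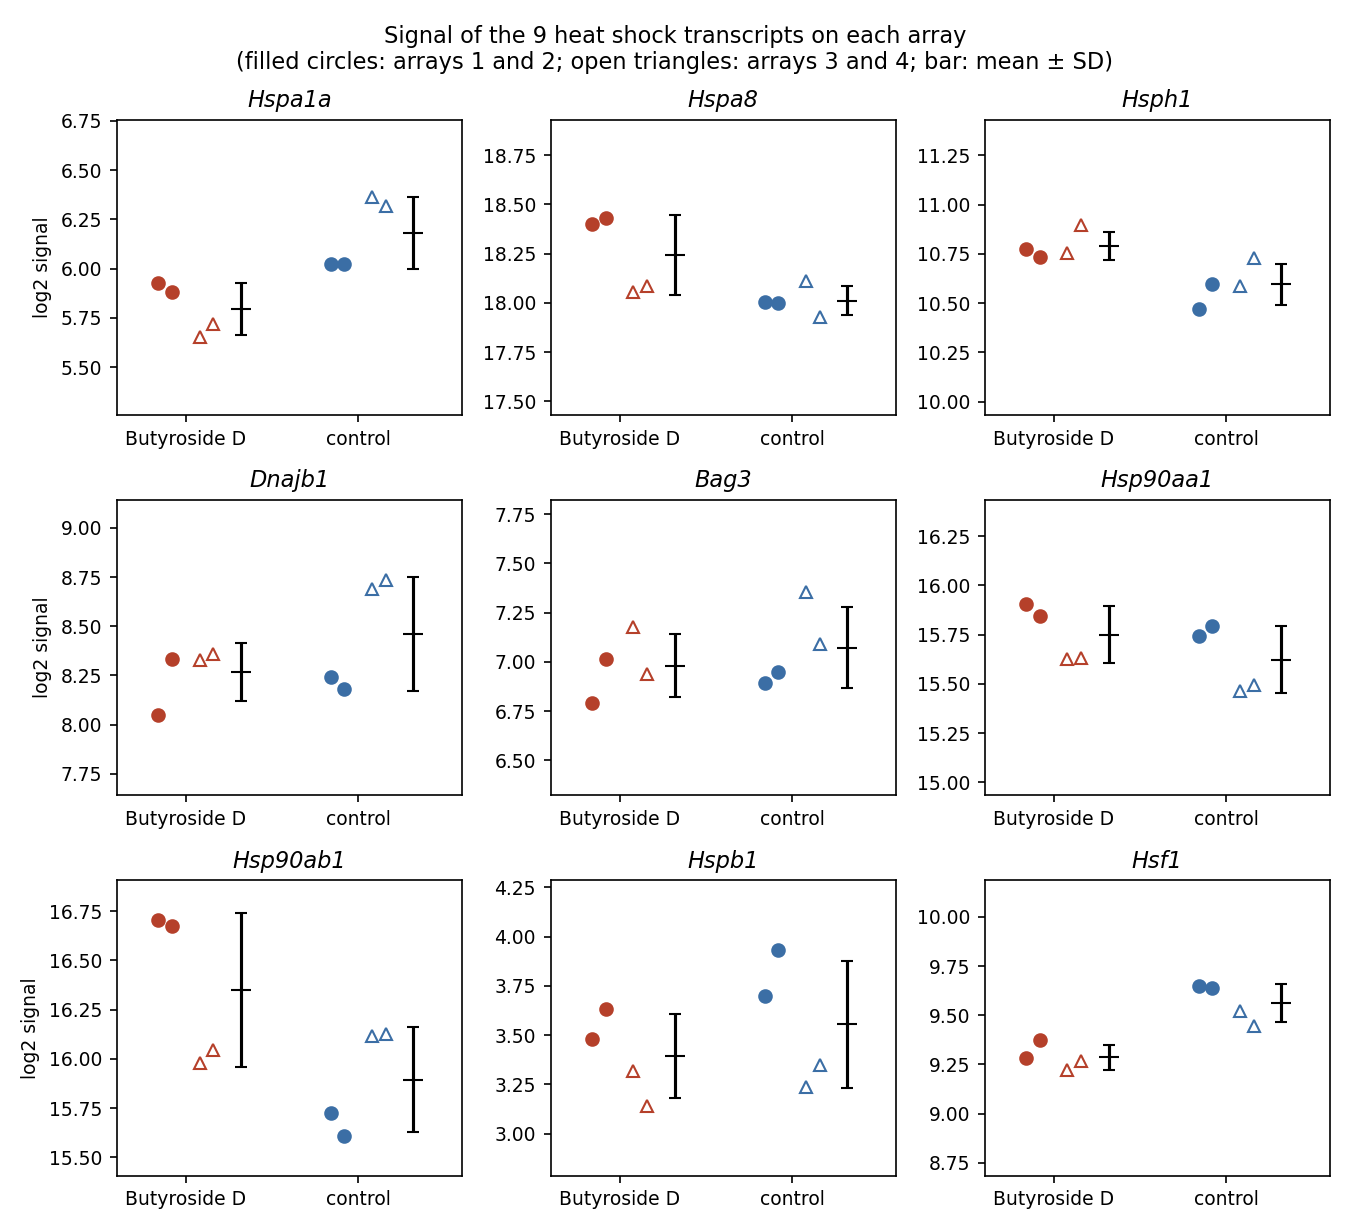
The log2 signal of each heat shock transcript is plotted for the 4 Butyroside D arrays (red, left) and the 4 control arrays (blue, right), with arrays 1 and 2 as filled circles, arrays 3 and 4 as open triangles, and the mean ± SD as a black bar; every panel spans the same range. The groups are apart for Hspa1a, Hsph1 and Hsf1, and in Hsp90ab1 and Hspa8 the first treated pair stands above the other 6 arrays.

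The inducible HSP70 gene Hspa1a, which is low in unstressed cells and among the most strongly heat-induced transcripts of mammals, was lower in the treated arrays. It read 5.93, 5.88, 5.65 and 5.72 in Butyroside D arrays 1 to 4, against 6.02, 6.02, 6.36 and 6.32 in control arrays 1 to 4. All treated arrays lay below all control arrays, but the step between treated array 1 and the nearest control was smaller than the distance between the 2 control pairs. The mean was 5.79 ± 0.13 in Butyroside D arrays and 6.18 ± 0.18 in control arrays (SD, n = 4 each), a difference of -0.39 (95% interval -0.69 to -0.080, adjusted p = 0.196, limma). With the close pair as a random block the interval was -0.87 to 0.099.

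Beside it, the transcript cluster annotated to both Hspa1b and Hspa1a showed no such separation. It read 5.83, 5.77, 5.28 and 5.51 in Butyroside D arrays, against 5.36, 5.53, 5.88 and 5.90 in control arrays. The treated and control ranges overlapped along most of their length, and in each group 1 pair was high and the other low. Its difference was -0.07 ± 0.18 (SE, adjusted p = 0.864, limma). All 8 readings of both transcript clusters were above 5.17, the highest median of the antigenomic background probe sets on any array, in a low range where array signals understate differences.

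Hspa8 encodes the constitutive HSP70 of the cytosol, which folds new chains, uncoats clathrin vesicles and serves chaperone-mediated autophagy. Its signal was 18.40, 18.43, 18.05 and 18.08 in Butyroside D arrays, against 18.01, 18.00, 18.11 and 17.93 in control arrays. Only treated arrays 1 and 2 were above every control array, while treated arrays 3 and 4 lay among the controls. The difference was 0.23 (95% interval -0.068 to 0.53, adjusted p = 0.392, limma), made up of 0.41 for treated arrays 1 and 2 and 0.059 for treated arrays 3 and 4, each set against the 4 controls. After quantile normalization it was 0.12. The highest signal of any transcript cluster on any array was 19.74, so Hspa8 sat near the top of the scale, where compression of differences was not tested.

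Hsph1 encodes HSP110, a relative of HSP70 that serves as its nucleotide exchange factor. Its signal was 10.77, 10.73, 10.76 and 10.89 in Butyroside D arrays, against 10.47, 10.60, 10.59 and 10.73 in control arrays. The groups did not overlap, yet treated array 2 and control array 4 were the same to 2 decimals. The difference was 0.19 ± 0.12 (SE, adjusted p = 0.412, limma), and both treated pairs shared it, with 0.16 for arrays 1 and 2 and 0.23 for arrays 3 and 4.

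The J protein Dnajb1 (HSP40), a strongly heat-induced partner of HSP70, had signals of 8.05, 8.33, 8.33 and 8.36 in Butyroside D arrays, against 8.24, 8.18, 8.69 and 8.73 in control arrays. Control arrays 3 and 4 were the high ones, and control arrays 1 and 2 lay within the treated range. The mean difference of -0.20 ± 0.16 (SE, adjusted p = 0.554, limma) was smaller than the 0.50 between the 2 control pairs. It was -0.11 without control array 4 and -0.12 without control array 3 or without treated array 1.

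Bag3, an exchange factor that couples HSP70 to small heat shock proteins and to selective autophagy, read 6.79, 7.01, 7.18 and 6.94 in Butyroside D arrays, against 6.89, 6.95, 7.35 and 7.09 in control arrays. The groups overlapped along most of their range. Bag3 differed by -0.09 ± 0.15 (SE, adjusted p = 0.776, limma), and its difference was 0.0031 without control array 3, -0.028 without treated array 1, -0.15 without control array 1 and -0.16 without treated array 3.

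Of the HSP90 genes, Hsp90ab1 (HSP90β, the constitutive form) had the largest difference of the 9 members over all arrays, though Hspa1a had a larger one without treated array 1, treated array 2, control array 1 or control array 2, and in the authors' deposited table. Hsp90ab1 read 16.70, 16.68, 15.98 and 16.05 in Butyroside D arrays, against 15.73, 15.61, 16.12 and 16.13 in control arrays. Treated arrays 1 and 2 stood above all other arrays, whereas treated arrays 3 and 4 lay between the 2 control pairs. The mean was 16.35 ± 0.39 in Butyroside D arrays and 15.90 ± 0.27 in control arrays (SD, n = 4 each), a difference of 0.46 (95% interval -0.017 to 0.93, adjusted p = 0.294, limma). Split by treated pair, the difference from all controls was 0.79 for arrays 1 and 2 and 0.12 for arrays 3 and 4.

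Its partner Hsp90aa1 (HSP90α, the more heat-inducible form) read 15.90, 15.84, 15.62 and 15.63 in Butyroside D arrays, against 15.74, 15.79, 15.46 and 15.49 in control arrays. In both groups arrays 1 and 2 were above arrays 3 and 4, by 0.25 in the treated arrays and 0.29 in the controls. Each of these gaps was larger than the difference of 0.13 ± 0.14 (SE, adjusted p = 0.653, limma) between the groups. That difference was 0.074 without control array 3, 0.076 without treated array 1, 0.084 without control array 4 and 0.084 after quantile normalization. Treated against control within arrays of the same numbers was not taken as a pairing, since nothing in the labels ties equal numbers together.

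Hspb1 (HSP27 in human, HSP25 in mouse) is a small heat shock protein that holds unfolded clients and binds actin filaments. Its signal did not exceed the background level on any of the 8 arrays, with 3.14 to 3.63 in Butyroside D arrays, against 3.24 to 3.93 in control arrays. It was thus not well above background in either group, and no fold is given. The other 8 members were above background on all 8 arrays.

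Hsf1, the factor that drives the inducible members, read 9.28, 9.37, 9.22 and 9.27 in Butyroside D arrays, against 9.65, 9.64, 9.52 and 9.45 in control arrays. All treated arrays were below all control arrays, and both treated pairs were, by -0.24 for arrays 1 and 2 and by -0.32 for arrays 3 and 4. The mean was 9.29 ± 0.06 in Butyroside D arrays and 9.56 ± 0.10 in control arrays (SD, n = 4 each), a difference of -0.28 (95% interval -0.53 to -0.019, adjusted p = 0.252, limma), or 0.825 of the control level. With the close pair as a random block the interval was -0.75 to 0.19. HSF1 is regulated mainly through its protein, which transcript signals do not report.

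**Figure D2:**
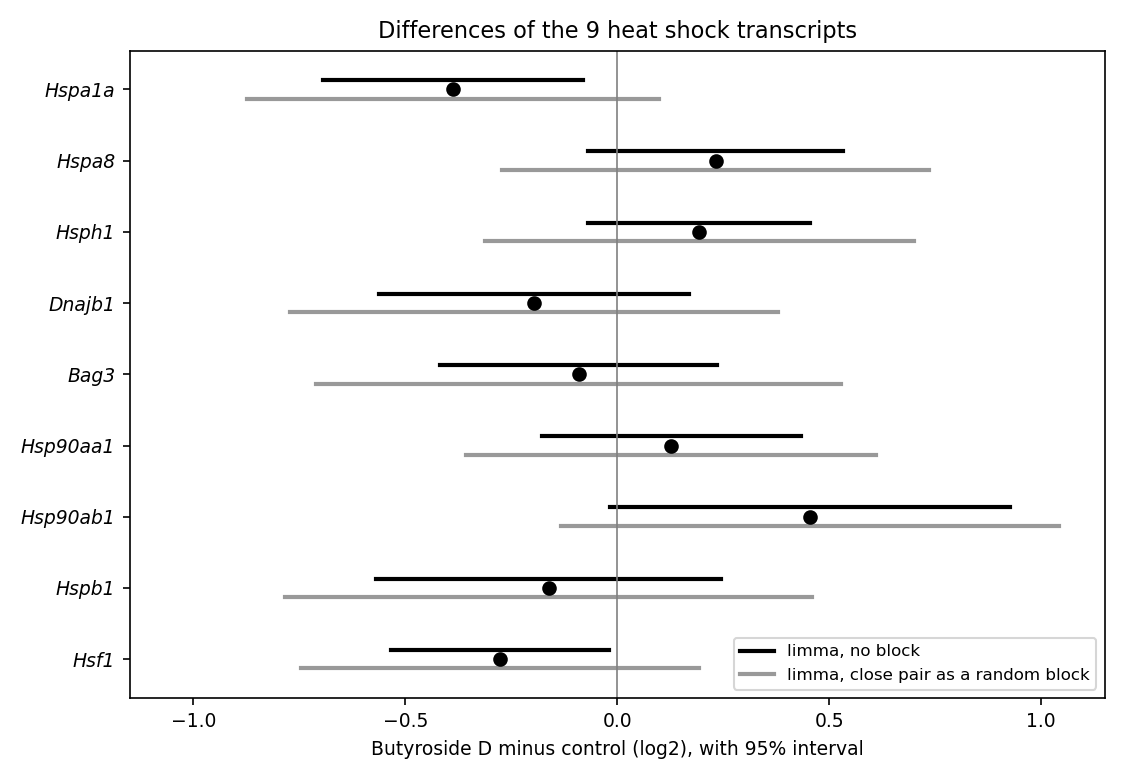
Points give the Butyroside D minus control difference (log2) of each heat shock transcript, with 95% intervals from limma without a block (black) and with the close pair as a random block (grey). Without the block the intervals of Hspa1a and Hsf1 lie below 0, and with it all 9 intervals hold 0.

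Counted by separation, 1 of the 9 members (Hsph1) had all treated arrays above all control arrays and 2 (Hspa1a and Hsf1) had all below. Over all transcript clusters these states held for 6.98% and 5.93%. With the close pair as a random block, 0 of the 9 had an unadjusted p under 0.05, against 4.01% of all transcript clusters, and the smallest was 0.108 for Hspa1a (limma).

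Spread between pairs was wider than the group difference for several members. For 4 of the 8 above background (Hsp90aa1, Hsp90ab1, Hspa8 and Bag3) the 2 treated pairs differed from each other by more than treated differed from control. The same held for the 2 control pairs of 3 of the 8 (Dnajb1, Hsp90aa1 and Bag3). Within a pair, the widest gap between 2 arrays was 0.285, for Dnajb1 in treated arrays 1 and 2. What separates the pairs is not given in the sources used here, and its part in these values was not tested.

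The members' profiles were averaged after each was centred on its own mean, and other transcripts were ranked by their likeness to that average. All 9 members entered it, Hspb1 below background among them, so 4 positive and 5 negative differences were pooled. The average was 0.045, 0.11, -0.089 and -0.092 in Butyroside D arrays 1 to 4, against -0.050, -0.020, 0.059 and 0.034 in control arrays 1 to 4. Among 10664 transcript clusters with 1 symbol and a mean signal above the median, the closest were Tspyl2, a TSPY family gene that is also in the list of heat-raised transcripts described last, Polr3a, the large subunit of RNA polymerase III, Asb8, Dusp6, a phosphatase of ERK, and Mapk7 (ERK5), with Pearson correlations of 0.98 to 0.99 over 8 arrays. These arrays are 4 close pairs, so such correlations are a description of few independent points, and with each array centred on its median they were 0.72 to 0.87.

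**Figure D3:**
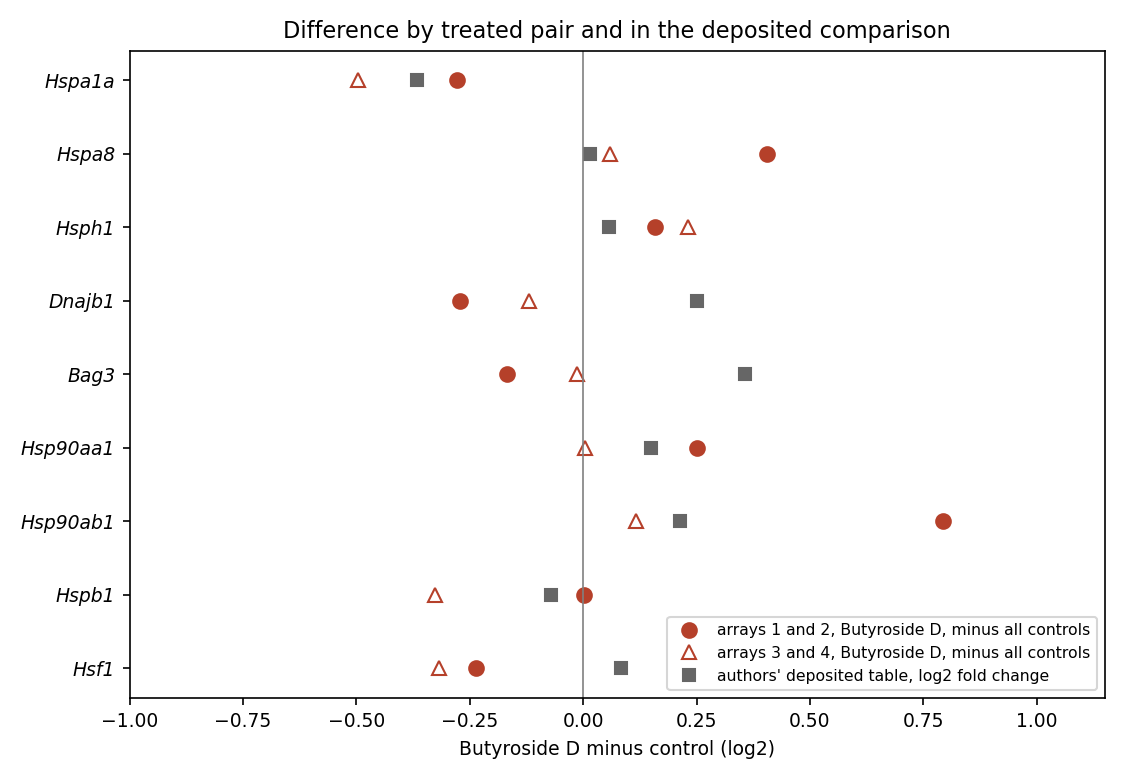
For each heat shock transcript the log2 difference from all control arrays is shown for treated arrays 1 and 2 (filled circles) and treated arrays 3 and 4 (open triangles), beside the log2 fold change of the authors' deposited table (grey squares). Hsp90ab1 has the widest gap between the treated pairs, 0.79 against 0.12, and Dnajb1, Bag3 and Hsf1 are on the other side of 0 in the authors' deposited table.

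A second source gives these genes as the authors compared them. The authors' deposited table called 0 of the 9 members at an FDR under 0.05, a level reached by 1.56% of its transcript clusters, and its smallest FDR among them was 0.2291 for Hspa1a. At its p-value under 0.05 the authors' deposited table held 1 of the 9, again Hspa1a, against 16.3% of all transcript clusters. Hspa1a was 1.29-fold lower in treated cells in the authors' deposited table, with averages of 5.81 treated and 6.18 control. The authors' deposited table also put the joint Hspa1b and Hspa1a transcript cluster 1.13-fold lower (FDR 0.9316).

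In the authors' deposited table Bag3 was higher by 1.28-fold (FDR 0.6993), where the arrays gave -0.09 on the log2 scale. The authors' deposited table put Dnajb1 1.19-fold higher (FDR 0.735) and Hsf1 1.06-fold higher (FDR 0.8054), against -0.20 and -0.28 in the arrays. Hsp90ab1 was 1.16-fold and Hsp90aa1 1.11-fold higher in the authors' deposited table, and Hsph1 and Hspa8 1.04-fold and 1.01-fold. Hspb1, below background in both averages, is given no size.

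For all 9 members, a robust mean (Tukey biweight) of the 4 control arrays came within 0.01 of the control average in the authors' deposited table. The same mean of the 4 treated arrays came within 0.01 of the treated average in the authors' deposited table for 0 of the 9, with gaps of 0.014 for Hspa1a to 0.39 for Bag3. Such gaps ran through the whole table, where only 533 of 22206 treated averages came within 0.01. The median gap was 0.223 for the members and 0.224 for all transcript clusters. For Dnajb1, Bag3 and Hsf1 the treated average in the authors' deposited table was 0.37 to 0.39 above that of the arrays. The 2 sources share the control arrays, and which treated samples gave the second average is not given in the sources used here.

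Other parts of the chaperone system were read from 7 lists with 107 measured genes of 112 listed, counting only genes with a transcript cluster of their own. None of the 107 was called higher or lower by limma. Their median difference was 0.065, and 18 of them, or 16.8%, had an unadjusted p under 0.05, beside the 17.9% given above for all transcript clusters. All treated arrays lay above all controls for 14 of the 107, or 13.1%, and below for 3, or 2.80%, beside 6.98% and 5.93% of all transcript clusters. These lists hold genes that vary together, and no list was tested as such. Of the 107, 3, or 2.80%, had an FDR under 0.05 in the authors' deposited table, beside 1.56% of all transcript clusters. At its p-value under 0.05 there were 25, or 23.4%, beside 16.3%. The 3 were all higher in treated cells: Dnajb9 (2.29-fold), Hmox1 (3.99-fold) and Osgin1 (2.39-fold), named after their values were seen. The arrays gave far smaller differences for them, 0.17 ± 0.12 for Dnajb9, 0.38 ± 0.49 for Hmox1 and 0.20 ± 0.18 for Osgin1 (log2, SE), with adjusted p of 0.454, 0.718 and 0.591 (limma) and overlapping groups. For Hmox1 the treated pairs lay on opposite sides of the controls, at 1.40 for arrays 1 and 2 and -0.65 for arrays 3 and 4. The treated averages of these genes in the authors' deposited table were 1.004 to 1.603 above those of the arrays on the log2 scale.

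**Figure D4:**
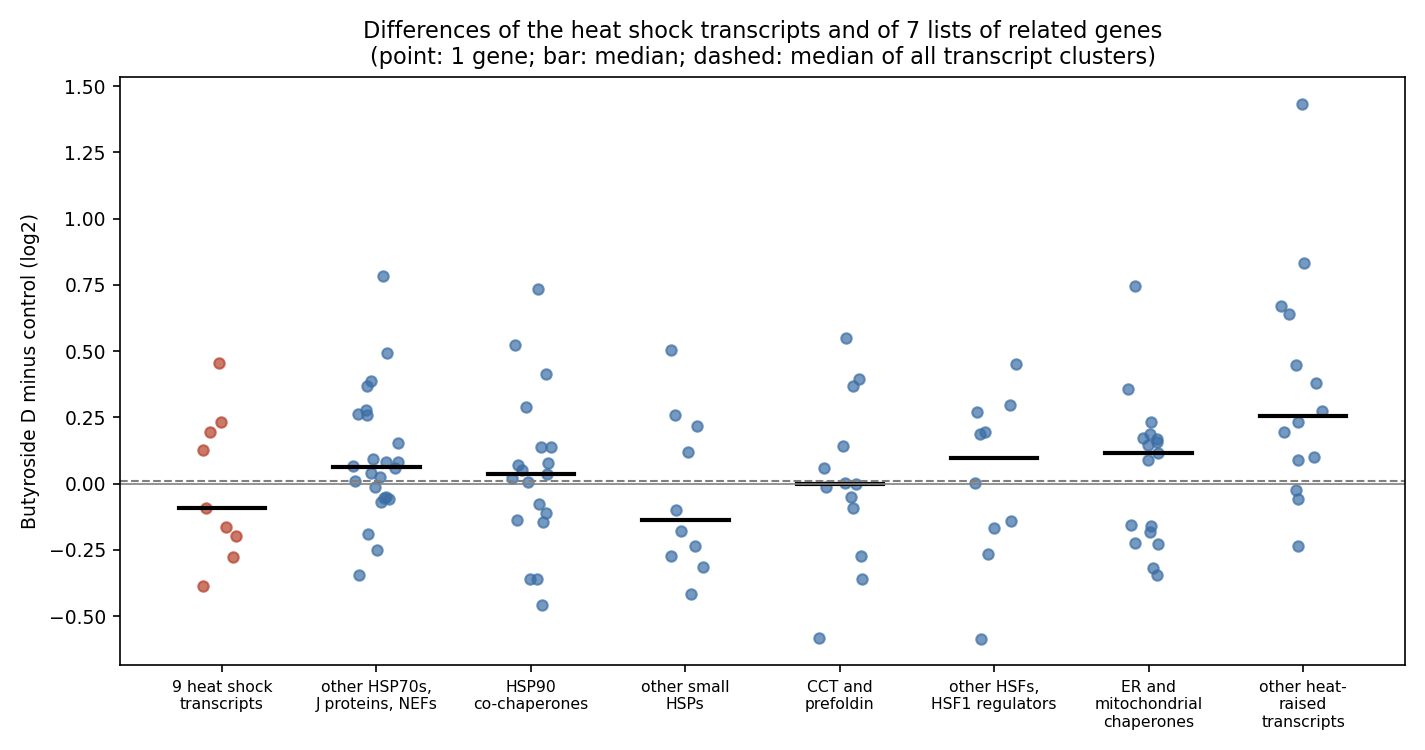
Each point is the Butyroside D minus control difference (log2) of 1 gene, for the 9 heat shock transcripts (red) and the genes of 7 lists of related genes (blue), with black bars at list medians and a dashed line at the median of all transcript clusters, 0.011. List medians lie between -0.14 for the other small heat shock proteins and 0.25 for other transcripts raised by heat shock. Only 3 of the 10 other small heat shock proteins had a mean above background.

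Among 24 other HSP70s, J proteins and exchange factors, 16 differences were positive and 8 negative, with a median of 0.062. Dnajb2, a J protein that sends clients to the proteasome, read 8.90, 8.93, 8.25 and 8.15 in Butyroside D arrays, against 7.81, 7.76, 7.75 and 7.77 in control arrays. Its treated pairs were both above the controls, by 1.14 and 0.43, and its mean difference was 0.78 ± 0.19 (SE, adjusted p = 0.0991, limma). Bag5, an exchange factor of HSP70, differed by 0.39 ± 0.11 (SE, adjusted p = 0.140, limma), with 0.41 and 0.37 by treated pair.

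HSP90 co-chaperones, 19 genes, had a median of 0.037 with 12 positive and 7 negative, and by treated pair a median of -0.18 for arrays 1 and 2 and 0.19 for arrays 3 and 4. Fkbp8, an immunophilin anchored in the mitochondrial outer membrane, had 10.28 to 10.81 in Butyroside D arrays, against 9.46 to 10.02 in control arrays, a difference of 0.73 ± 0.18 (SE, adjusted p = 0.0984, limma). Cdc37l1, a relative of the kinase co-chaperone Cdc37, had 9.28 to 9.42 in Butyroside D arrays, against 9.64 to 9.92 in control arrays, a difference of -0.46 ± 0.12 (SE, adjusted p = 0.116, limma). So the co-chaperones with the smallest p lay on opposite sides of 0, and neither passed the threshold. Fkbp8 was 1.42-fold higher (FDR 0.187) and Cdc37l1 1.22-fold lower (FDR 0.4008) in the authors' deposited table.

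The 13 measured genes of the CCT chaperonin, which folds actin and tubulin, and of its feeder prefoldin had a median of -0.001, with 6 positive and 7 negative. By treated pair, each against all controls, the median was -0.024 for arrays 1 and 2 and 0.37 for arrays 3 and 4. Of the 13, 12 were positive in the authors' deposited table, with a median log2 fold change of 0.31. There 5 of the 13, or 38.5%, had a p-value under 0.05, beside 16.3% of all transcript clusters. Their smallest FDR there was 0.2497. Cct3 differed by 0.39 ± 0.11 and Pfdn1 by 0.55 ± 0.20 (SE, limma), with all treated arrays above all controls for both genes. The authors' deposited table put Cct3 1.13-fold higher (FDR 0.5779) and Pfdn1 1.35-fold higher (FDR 0.2943). Among the other small heat shock proteins only 3 of 10 had a mean above background. One of these, Hspb6, differed by -0.31 ± 0.14 (SE, limma), but was 1.07-fold higher in the authors' deposited table (FDR 0.8727). The lens chaperone Cryaa was below background on all 8 arrays. For the other heat shock factors and regulators of HSF1, the median was 0.096 with 6 of 10 positive. Only 6 of these 10 genes had a mean above background. The authors' deposited table had 5 of the 10 positive, with a median log2 fold change of -0.0069. Sirt1, a deacetylase that acts on HSF1, differed by 0.45 ± 0.12 (SE, limma), and Hsf5 was below background throughout. Sirt1 was 1.16-fold higher in the authors' deposited table (FDR 0.5435).

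Chaperones of the endoplasmic reticulum and mitochondria had a median of 0.115, with 10 of 17 positive. In the authors' deposited table, whose treated averages differ from the arrays as given above, 13 were positive, with a median log2 fold change of 0.39. There 9 of the 17, or 52.9%, had a p-value under 0.05, beside 16.3% of all transcript clusters. Of these only Dnajb9 had an FDR under 0.05. Trap1, the mitochondrial HSP90, read 11.97, 11.97, 11.11 and 11.14 in Butyroside D arrays, against 10.81, 10.73, 10.80 and 10.87 in control arrays, with treated arrays 1 and 2 farthest from the controls. Trap1 differed by 0.74 ± 0.22 (SE, adjusted p = 0.139, limma). With the close pair as a random block the SE was 0.27 and the adjusted p 0.999 (limma). In the authors' deposited table Trap1 was 1.03-fold lower (FDR 0.9304). Serpinh1, the collagen chaperone HSP47, had 14.06 and 14.02 in treated arrays 1 and 2 and 13.39 and 13.43 in treated arrays 3 and 4, against 13.31 to 13.42 in control arrays. As with Hspa8 and Hsp90ab1, its first treated pair stood above all other arrays and its second lay within or beside the controls.

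Finally, 14 other transcripts that heat shock is known to raise had a median of 0.25, with 11 positive and 3 negative. By treated pair that median was 0.34 for arrays 1 and 2 and 0.12 for arrays 3 and 4. Of the 14, 11 had a mean above background. The authors' deposited table had 9 of the 14 positive, with a median log2 fold change of 0.14. The list includes early-response genes and targets of other stress pathways, and many of its members respond to signals other than heat. Chac1 and Dusp1 had its smallest p, with 2.25 and 0.62 by treated pair for Chac1 and 1.23 and 0.44 for Dusp1, each against all controls. Their adjusted p was 0.122 and 0.116 (limma), and 0.999 for both with the close pair as a random block. In the authors' deposited table Chac1 was 1.56-fold higher (FDR 0.3501) and Dusp1 1.07-fold lower (FDR 0.9605). Beside them, 5 of the 9 members had negative differences, among them Hspa1a at -0.39 and Dnajb1 at -0.20. The other 4 had positive ones, among them Hsph1 at 0.19 and Hsp90aa1 at 0.13. None of these differences passed the threshold, and Dnajb1 was 1.19-fold higher in the authors' deposited table.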

How the data were processed

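Signals came from 8 Clariom S arrays, 4 Butyroside D and 4 control, grouped by sample titles. The deposited value table holds log2 signals per array; the submitters' processing notes list RMA, Affymetrix Expression Console and Transcriptome Analysis Console, with no version. Per the file headers, the authors' deposited table gives log2 averages, a signed fold change (a score, where values below 1 are negative inverses), a p-value and an FDR-adjusted p-value from an unnamed test. The genome build is not given in the sources used here. From 28846 features, 6640 control probe sets were set aside. The difference was tested across all 22206 transcript clusters with limma 3.58.1 in R 4.3.3. Settings were lmFit, eBayes, two-sided, 6 residual degrees of freedom, Benjamini-Hochberg and a threshold of 0.05. A trial on simulated data came first. It drew all 8 arrays independently, without close pairs, so it cannot show how the test behaves with such pairs. Background is the highest array median of 23 antigenomic probe sets, 5.17. Precision is limited by the number of arrays. Members and lists were chosen with earlier results of these data known. Named were all members, the 2 smallest p of each list and the 5 transcripts most like the members' mean profile; Dnajb9, Hmox1 and Osgin1 were added after their values were seen. Alternatives were the replicate number as a block, close pairs as a random block or as means, median centring, quantile normalization, a background filter, a trended robust prior, single arrays left out, single treated pairs and the authors' deposited table. The members' sequences were not used here.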

Additional observations from a re-analysis of the deposited data

Results flagged for a closer look

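In 58 groups of 4 arrays, covering the members, the genes named by rule and the joint Hspa1b and Hspa1a transcript cluster, 1 group held an array that lay apart from the other 3. Butyroside D array 1 read 8.05 for Dnajb1, while treated arrays 2 to 4 read 8.33 to 8.36, a gap of 0.903 of the group's range, past the level (Dixon's 95% critical value) that about 5% of groups of 4 independent arrays pass by chance. Without that array the Dnajb1 difference was -0.12.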

How the results depend on the processing

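In all 15 alternative fits, 0 of the 9 members were called in either direction, and the smallest adjusted p of a member was 0.173 (Hspa1a, background filter, which drops Hspb1, limma). Directions of the members held in these fits, except that Bag3, at -0.16 to 0.0031 with 1 array left out, was positive without control array 3. Over all transcript clusters, 17 were called higher and 9 lower; median centring gave 40 higher, and the filter on background, which tests 11875 transcript clusters, gave 43 higher and 18 lower. The close pair as a random block (within-pair correlation 0.808) and means of close pairs gave 0 and 0, with 890 and 571 at an unadjusted p under 0.05. Leaving out 1 array gave 0 to 3 higher and 0 to 2 lower, above 0 only without treated array 4. With the replicate number as a block, limma called 0 higher and 0 lower (4320 at an unadjusted p under 0.05), and no member's call changed. Deviations of same-numbered treated and control arrays correlated at 0.070 to 0.084, below the 0.1 taken to show a pairing. Arrays of different number within 1 with 2 or 3 with 4 gave 0.054 to 0.074, and the others -0.081 to -0.058. This weak likeness thus followed the close pairs rather than the single numbers. The cause of the shifts in the counts was not tested. Dim probe sets such as Hspb1 give no size.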
